A study of Mus musculus with 12 samples.

Results

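The genes described here encode the CD8 coreceptor, the signalling chains of the T cell receptor complex and the first kinases and adaptor that act below it: Cd8a, Cd8b1, Cd3d, Cd3e, Cd3g, Cd247, Lck, Zap70 and Lat. They were taken by symbol, under a rule that uses no measured value though earlier results of these data were known, and are 9 of the 56941 genes in the deposited count table. RNA came from CD8+ T cells of Panc02 tumours, which derive from a mouse pancreatic tumour line, in wild type C57BL/6J mice. Cells were sorted as DAPI-, CD45.2+ and CD8+ and divided by surface asialo-GM1 (asGM1), a glycosphingolipid, and tumours had been treated with an isotype control antibody or with anti-PD-1, which blocks an inhibitory receptor of T cells. This gave 4 groups of 3 libraries: isotype asGM1-negative, isotype asGM1-positive, anti-PD-1 asGM1-negative and anti-PD-1 asGM1-positive. All groups share the strain, the tumour line and the CD8 gate, and the labels name no CD3 or T cell receptor gate and give no age, antibody dose or sampling time. CD8 was a criterion of the sort, so the presence of Cd8a RNA is no finding. Whether replicates were separate mice is not stated, and p-values rest on the spread between libraries only.

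An alpha-beta T cell receptor has no signalling part of its own and is carried by the CD3 gamma, delta, epsilon and zeta chains, which hold tyrosine motifs. When the receptor meets a peptide on MHC class I, CD8 binds the same MHC molecule and brings the kinase Lck, which phosphorylates those motifs. The kinase Zap70 then docks on them and phosphorylates Lat, a membrane adaptor on which the downstream signalling complexes assemble. PD-1 is known to recruit phosphatases that act against this step and against the costimulatory receptor CD28.

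The members lie in gene neighbourhoods that matter for reading their RNA together. Cd8b1 and Cd8a are adjacent on chromosome 6, and Cd3g, Cd3d and Cd3e follow each other on chromosome 9, with 0 annotated RefSeq genes between neighbours in each case. RefSeq start site windows, running from 250 bases before to 50 bases after the annotated start in build GRCm38.p6, matched 8 of the 9 members, all but Cd8b1. The windows of Cd8a and Cd3g are shown because these were the members that passed a test below, and those of Cd3d and Cd3e because they are the neighbours of Cd3g that did not. All are written 5′ to 3′ on the strand of the gene: Cd8a at chr6:71373177-71373476 on the plus strand, Cd3g at chr9:44980382-44980681 on the minus strand, Cd3d at chr9:44981536-44981835 on the plus strand and Cd3e at chr9:45009562-45009861 on the minus strand. The files themselves use build mm39, so these positions are those of the reference windows only. Capitals mark matches, on either strand, to the core motif of RUNX factors, spelled TGTGGT, to that of ETS factors, spelled GGAAGT, to that of the GATA family, spelled AGATAA, or to a TATA box, spelled TATAAA.
Cd8a: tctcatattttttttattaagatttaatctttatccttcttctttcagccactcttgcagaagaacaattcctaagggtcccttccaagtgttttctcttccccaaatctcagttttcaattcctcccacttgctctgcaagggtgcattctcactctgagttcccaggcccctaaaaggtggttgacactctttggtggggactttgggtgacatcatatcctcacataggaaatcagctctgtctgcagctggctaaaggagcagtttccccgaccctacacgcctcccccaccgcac
Cd3g: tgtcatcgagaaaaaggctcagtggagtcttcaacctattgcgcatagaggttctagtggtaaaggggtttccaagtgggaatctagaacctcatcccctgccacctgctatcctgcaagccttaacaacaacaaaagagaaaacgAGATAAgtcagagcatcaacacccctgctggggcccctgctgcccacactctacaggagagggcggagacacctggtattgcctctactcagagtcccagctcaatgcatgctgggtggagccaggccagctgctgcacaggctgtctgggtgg
Cd3d: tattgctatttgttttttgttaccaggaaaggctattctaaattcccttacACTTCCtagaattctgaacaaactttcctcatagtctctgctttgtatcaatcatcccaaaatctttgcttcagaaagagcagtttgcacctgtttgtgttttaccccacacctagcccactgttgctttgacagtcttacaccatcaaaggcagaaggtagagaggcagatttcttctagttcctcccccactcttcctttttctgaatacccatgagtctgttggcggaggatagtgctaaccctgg
Cd3e: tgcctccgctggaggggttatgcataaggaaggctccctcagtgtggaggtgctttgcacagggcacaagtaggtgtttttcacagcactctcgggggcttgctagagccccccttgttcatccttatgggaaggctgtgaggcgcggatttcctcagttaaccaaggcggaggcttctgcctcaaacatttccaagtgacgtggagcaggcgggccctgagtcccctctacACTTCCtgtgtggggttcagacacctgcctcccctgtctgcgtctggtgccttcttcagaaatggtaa
The Cd3g and Cd3d windows lie on opposite strands with 854 bases between them, so the pair is transcribed away from a shared stretch. Cd3g held 1 GATA core match, Cd3d and Cd3e held 1 ETS core match each on the opposite strand, and Cd8a held 0 matches to these 4 motifs. E-box letters (CANNTG), which are not in capitals, occurred 3 times in the Cd8a window, 4 times in Cd3g, 1 time in Cd3d and 2 times in Cd3e, and no match overlapped one of another motif. Over all 32851 windows of this length, 16.8% held the RUNX core, 23.8% the ETS core, 11.2% the GATA core, 13.6% the TATA box and 72.3% an E-box, so these matches are common letters and not identified sites.

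Every library held these transcripts in large amounts. Library totals ran from 58.1 to 73.2 M counts (M for mega), all 9 members passed the expression filter that left 18657 genes, and together they took 1.04 to 1.24% of counts in the 6 isotype libraries and 0.904 to 1.07% in the 6 anti-PD-1 libraries. Values below are CPM, the counts of a gene for each M counts of its library, after TMM scaling, which adjusts totals for composition. Per kilobase of exon, with lengths from GENCODE M21 and not from the authors' annotation, the median level over the 12 libraries was highest for Cd3g at 1820.0 CPM per kb, followed by Cd8b1 at 1004, Cd3e at 814, Lck at 797, Cd8a at 637 and Cd3d at 555. Lat at 377, Zap70 at 166 and Cd247 at 80.5 CPM per kb were lower. The places of Cd3e and Lck changed when length was taken from the longest coding transcript (814 and 845 CPM per kb), and Cd247 then stood at 124 CPM per kb, still the lowest. Levels of Cd3g and Cd247, chains of 1 complex, therefore lay far apart on the RNA level in every group.

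**Figure D1:**
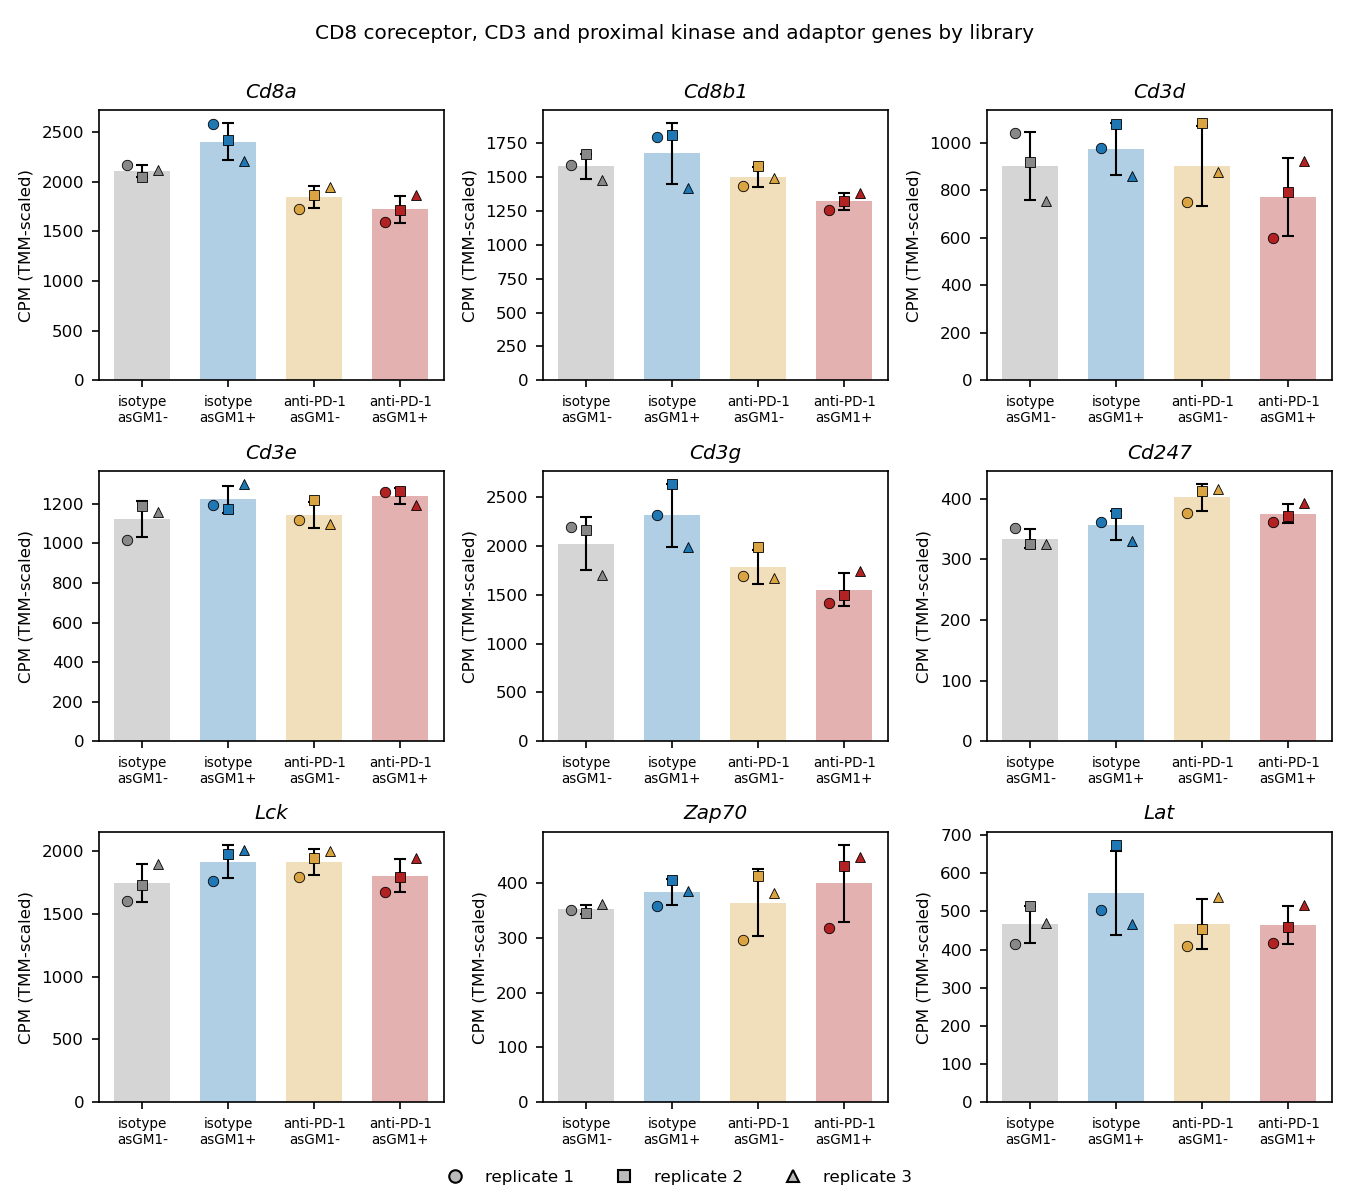
Level of each of the 9 genes in CPM (vertical axes, starting at 0) in each library, by group. Bars are means of 3 libraries, error bars are the SD, and symbols mark the replicate number. Cd8a in the 6 anti-PD-1 libraries lies between 1591 and 1944 CPM, below the 6 isotype libraries at 2046 to 2581 CPM, while Cd3e lies between 1018 and 1300.2 CPM with no gap between the treatments.

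Cd8a, the CD8 alpha chain, was lower in every anti-PD-1 library than in any isotype library. Isotype asGM1-negative libraries held 2166, 2046 and 2121 CPM (replicates 1 to 3) and isotype asGM1-positive libraries 2581, 2421 and 2207 CPM. After anti-PD-1, asGM1-negative libraries held 1722, 1860.4 and 1944 CPM and asGM1-positive libraries 1591, 1710.0 and 1862 CPM. The gap between the treatments lay between 1944 and 2046 CPM, both in asGM1-negative cells. Group means ran from 2403 ± 188 CPM (SD, n = 3) in isotype asGM1-positive cells through 2111 ± 60.5 in isotype asGM1-negative and 1842 ± 113 in anti-PD-1 asGM1-negative cells to 1721 ± 136 in anti-PD-1 asGM1-positive cells. Neighbours in that order did not pass a test against each other.

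In asGM1-positive cells Cd8a fell with anti-PD-1 by 0.48 on the log2 scale (SE 0.09, edgeR adjusted p = 0.00741), to 0.716 times the isotype level. Cd3g, the CD3 gamma chain, was the other member that fell there. It stood at 2316, 2629 and 1983 CPM under isotype and at 1417, 1498 and 1741 CPM under anti-PD-1, so the groups did not overlap, and its log2 fold change was -0.57 ± 0.13 (SE, edgeR adjusted p = 0.0256), or 0.672 times the isotype level. In bulk samples, fewer cells that express a gene and less RNA per cell cannot be told apart. Thus 2 of 9 members were called, both lower, where 6.83% of all genes tested were called in this comparison, 3.78% higher and 3.04% lower. Among the 668 genes with a mean log2 CPM of at least 8, the abundance range of all 9 members, 13.8% were called. The median log2 fold change of the 9 members was -0.24, beside -0.01 over all genes tested.

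The Cd8a call in asGM1-positive cells held in 18 of 20 alternatives (adjusted p from 4.68e-06 to 0.0546). It was missed when only the 6 libraries compared were fitted (adjusted p = 0.0546) and when both anti-PD-1 replicate 2 libraries were left out (adjusted p = 0.0528), with a log2 fold change of -0.48 in both. The Cd3g call was less stable, holding in 14 of 20 alternatives (adjusted p from 0.00101 to 0.118). It was missed in the fit of 6 libraries (0.0647), on removal of isotype asGM1-positive replicate 1 (0.0689) or replicate 2 (0.0944), on removal of replicate 1 (0.118) or replicate 2 (0.0986) of anti-PD-1 asGM1-positive cells, and without both anti-PD-1 replicate 2 libraries (0.108), with log2 fold changes from -0.57 to -0.46. The 20 alternatives include leaving out each asGM1-negative library in turn, and those libraries are not among the 6 compared. Counts of alternatives that hold, here and in other comparisons of 6 libraries, can therefore overstate stability.

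Cd8b1, the CD8 beta chain, leaned the same way as Cd8a in asGM1-positive cells without passing. Its libraries held 1798, 1814 and 1417 CPM under isotype and 1257, 1323 and 1384 CPM under anti-PD-1. The groups did not overlap, isotype replicate 3 being the nearest to the anti-PD-1 values, and the log2 fold change was -0.34 ± 0.10 (SE, edgeR adjusted p = 0.0682). Cd8a, Cd8b1 and Cd3g were the 3 of 9 members whose anti-PD-1 libraries all lay below the isotype ones, an arrangement in one direction or the other found for 24.0% of all genes tested. DESeq2 called Cd8b1 (adjusted p = 0.0147), as did edgeR without isotype asGM1-positive replicate 3 (log2 fold change -0.45, adjusted p = 0.0143), while over its 20 alternatives the adjusted p ran from 0.0143 to 0.239.

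The other CD3 chains did not share one pattern. Cd3d, the delta chain and the neighbour of Cd3g, held 977, 1079.9 and 861 CPM under isotype and 599, 792 and 924 CPM under anti-PD-1 in asGM1-positive cells, with overlapping groups and a log2 fold change of -0.33 ± 0.18 (SE, edgeR adjusted p = 0.324). Cd3e, the epsilon chain that pairs with both gamma and delta, held 1191, 1176 and 1300.2 CPM under isotype and 1258, 1264 and 1194 CPM under anti-PD-1. Its log2 fold change was 0.02 with a 95% interval from -0.17 to 0.20, which does not reach the size of the Cd8a or Cd3g value. For Cd247, the zeta chain, isotype libraries held 362, 377 and 331 CPM and anti-PD-1 libraries 362, 372 and 393 CPM, with a log2 fold change of 0.07 (95% interval -0.10 to 0.25).

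The kinases and the adaptor did not pass in asGM1-positive cells. Lck held 1761, 1972 and 2008 CPM under isotype and 1676, 1793 and 1941 CPM under anti-PD-1, a log2 fold change of -0.09 (95% interval -0.29 to 0.12). Zap70 held 358, 405 and 385 CPM under isotype and 318, 431 and 447 CPM under anti-PD-1, a log2 fold change of 0.06 (95% interval -0.25 to 0.37). Lat held 505, 674 and 468 CPM under isotype and 416, 459 and 516 CPM under anti-PD-1, a log2 fold change of -0.24 (95% interval -0.57 to 0.09). The isotype mean of Lat, 549 ± 110 CPM (SD, n = 3), rested in part on the single value of 674 CPM, and the groups overlapped for each of these 3 genes.

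**Figure D2:**
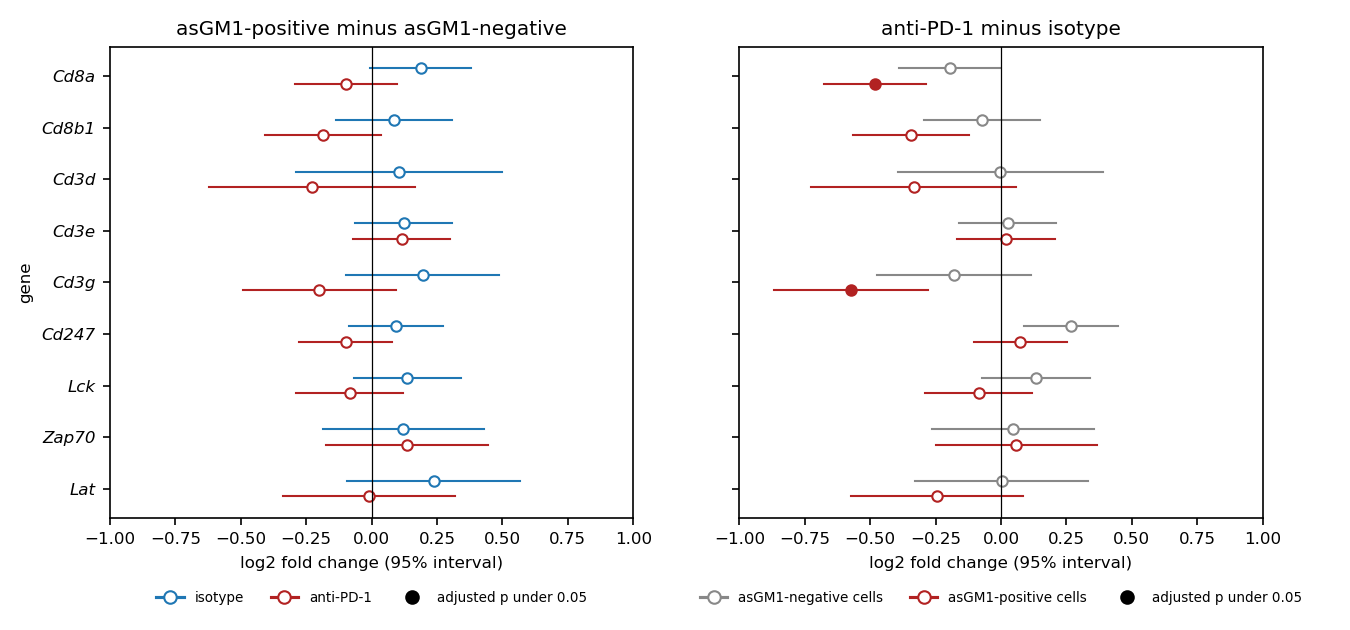
Log2 fold changes (horizontal axes) of the 9 genes with 95% intervals, between populations on the left and between treatments on the right. Filled points passed at an adjusted p under 0.05 in edgeR: Cd8a at -0.48 and Cd3g at -0.57 for anti-PD-1 against isotype in asGM1-positive cells, and 0 of 9 genes in each of the other 3 comparisons drawn.

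In asGM1-negative cells 0 of 9 members passed between the treatments by edgeR or limma voom, while 8.75% of all genes tested were called by edgeR, 4.21% higher and 4.55% lower. Of the 668 genes in the abundance range of the members, 22.9% were called. The median member log2 fold change was 0.00. Cd8a and Cd247 were the 2 members with an unadjusted p under 0.05 and the 2 whose groups did not overlap, an arrangement found for 30.3% of all genes. Cd8a stood at a log2 fold change of -0.20 ± 0.09 (SE, edgeR adjusted p = 0.213). Cd247 pointed the other way: isotype libraries held 352, 325 and 325 CPM and anti-PD-1 libraries 377, 414 and 417 CPM, with a log2 fold change of 0.27 ± 0.08 (SE, edgeR adjusted p = 0.0657). DESeq2 called Cd247 here (0.26, adjusted p = 0.0105), the 1 of 20 alternatives that did (adjusted p from 0.0105 to 0.223).

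Among the remaining members in asGM1-negative cells, anti-PD-1 and isotype libraries overlapped. Cd8b1 held 1588, 1668 and 1482 CPM under isotype and 1434, 1579 and 1495 CPM under anti-PD-1, and Cd3g held 2192, 2156 and 1705 CPM under isotype and 1687, 1984 and 1675 CPM under anti-PD-1. The isotype replicate 3 library was the low one for both genes, and for Cd3d too, at 755 CPM against 1039.8 and 920.1 CPM. Log2 fold changes were -0.07 for Cd8b1, -0.18 for Cd3g, 0.00 for Cd3d, 0.03 for Cd3e, 0.13 for Lck, 0.05 for Zap70 and 0.00 for Lat. Adjusted p in edgeR was 0.445 or higher for these 7 genes.

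Averaged over the populations, Cd8a fell by 0.34 on the log2 scale (SE 0.06, edgeR adjusted p = 0.00334) and was called in all 19 alternatives, with values from -0.37 to -0.31. Cd3g fell by 0.38 (SE 0.10, edgeR adjusted p = 0.0176) and was called in 18 of 19, the exception being the fit without anti-PD-1 asGM1-negative replicate 3 (-0.35, adjusted p = 0.0516, the highest of a range from 0.00119). These 2 of 9 members, both lower, compare with 18.3% of all genes called in this comparison (9.22% higher, 9.10% lower), and with 37.7% of the 668 genes in the members' abundance range. A share of 2 in 9 is thus close to the background. Cd8a was the only member whose 6 anti-PD-1 libraries all lay on one side of the 6 isotype libraries, which held for 7.48% of all genes. DESeq2 also called Cd8b1 lower (-0.21, adjusted p = 0.0240) and Cd247 higher (0.16, adjusted p = 0.0189) in the average, and edgeR without isotype asGM1-positive replicate 3 called Cd8b1 (-0.26, adjusted p = 0.0126). Over the 19 alternatives the adjusted p ran from 0.0126 to 0.158 for Cd8b1 and from 0.0189 to 0.188 for Cd247. The average counts all 6 libraries of a treatment as independent, although same-numbered asGM1-negative and asGM1-positive libraries deviated together. A fit with those pairs as blocks cannot estimate a treatment difference, so no alternative took the pairs within a treatment into account. SE and p of this average, here and for other genes below, may therefore be too small.

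Whether the treatment difference itself depended on the population was tested by the interaction, anti-PD-1 minus isotype in asGM1-positive cells less the same in asGM1-negative cells. By edgeR 0 of 9 members passed and 0% of all genes tested were called, with 1 member and 1341 genes at an unadjusted p under 0.05. That member was Cd8a, at -0.29 ± 0.13 (SE, edgeR adjusted p = 0.689), and for Cd3g the value was -0.39 ± 0.19 (SE, edgeR adjusted p = 0.731). DESeq2 and limma voom called 0 of 9 members as well, although DESeq2 called 136 genes in all. A difference between the populations in how Cd8a or Cd3g followed treatment was therefore not shown, despite calls in only 1 of them.

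Other measurements moved with these treatment differences. Of the gamma delta T cell list (Trdc, Trgc1, Trgc2, Trgc4, Sox13), Trgc2 and Trgc4 fell with anti-PD-1 in both populations, and 2 of the 4 genes tested were thus called. The summed level of the list was 241 to 330 CPM under isotype and 58.1 to 91.7 CPM under anti-PD-1 in asGM1-positive cells, and 108 to 194 CPM and 42.4 to 65.5 CPM in asGM1-negative cells. Its defining markers were low throughout, with Trdc at 8.31 CPM or less and Sox13 at 0 in all 12 libraries. The summed level of 5 B cell genes, nearly all of it Ighm, the mu heavy chain, was also lower under anti-PD-1 with no overlap: 61.6 to 121 CPM against 191 to 213 CPM in asGM1-negative cells, and 18.2 to 100.5 CPM against 135 to 175 CPM in asGM1-positive cells. None of the 3 genes tested in that list passed between treatments in either population, and Ms4a1, a defining B cell gene, was at 0 in all 12 libraries. In asGM1-negative cells the summed level of 8 plasmacytoid dendritic cell genes was 133 to 173 CPM under anti-PD-1 against 219 to 369 CPM under isotype. Of that sum, Bst2 alone held 67.7 to 80.0 CPM under anti-PD-1 and 70.9 to 171 CPM under isotype. In asGM1-positive cells the sum was mostly Bst2 and overlapped between treatments, and 0 of the 8 genes passed in either population. Of the NK cell genes, Eomes was called higher and Klrb1c lower with anti-PD-1 in asGM1-positive cells. Of the type 1 conventional dendritic cell genes, Batf3 was called lower in both populations and Xcr1 higher in asGM1-negative cells. Of the macrophage and monocyte genes, C1qa was called lower and Cd68 higher in asGM1-positive cells. Hspa1a, a heat shock gene, held 188 to 440 CPM in the isotype libraries, 151 and 146 CPM in the anti-PD-1 replicate 2 libraries and 22.5 to 32.6 CPM in the other 4. The part of these in the Cd8a and Cd3g results was not tested. The fits without the replicate 2 libraries given above cannot test it. They keep the 4 anti-PD-1 libraries whose Hspa1a lay furthest from isotype, and they do not separate the other genes named here from treatment.

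Ratios between members within a library do not depend on the library total or its scaling, and are described here without a test. Of the 6 ratios computed, Cd3g to Cd3d and Cd8a to Cd3e were added after the data were seen. The count ratio of Cd8a to Cd8b1 was 1.34 ± 0.10 in isotype asGM1-negative, 1.44 ± 0.11 in isotype asGM1-positive, 1.23 ± 0.07 in anti-PD-1 asGM1-negative and 1.30 ± 0.04 in anti-PD-1 asGM1-positive libraries (SD, n = 3 each), with overlap between treatments in each population. Cd3g to Cd3e in asGM1-positive cells was 1.94, 2.24 and 1.53 under isotype and 1.13, 1.18 and 1.46 under anti-PD-1. Cd8a to Cd3e in the same cells was 2.17, 2.06 and 1.70 under isotype and 1.26, 1.35 and 1.56 under anti-PD-1. Both of the latter ratios were lower in every anti-PD-1 library than in any isotype library of these cells, and both overlapped between treatments in asGM1-negative cells. Cd247 to Cd3e overlapped between treatments in each population. Under anti-PD-1 it was 0.288 to 0.329 in asGM1-positive and 0.337 to 0.381 in asGM1-negative cells, without overlap. Cd3g to Cd3e did not overlap there either, at 1.13 to 1.46 against 1.51 to 1.63. The other ratios overlapped between populations under anti-PD-1, and all 6 did under isotype.

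The ratio of Cd3g to its divergent neighbour Cd3d ranged from 1.83 to 2.43 over all 12 libraries, with overlap between the treatments in each population. Its group means were 2.24 ± 0.12 and 2.37 ± 0.07 under isotype and 1.997 ± 0.22 and 2.05 ± 0.28 under anti-PD-1 (asGM1-negative, then asGM1-positive, SD, n = 3). Cd3d to Cd3e ranged more widely within groups, for example 1.02, 0.774 and 0.650 in isotype asGM1-negative libraries. The level of Cd3d ranged more widely than that of Cd3e: Cd3d varied from 599 to 1084 CPM over the 12 libraries, a factor of 1.81, and Cd3e by a factor of 1.28.

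**Figure D3:**
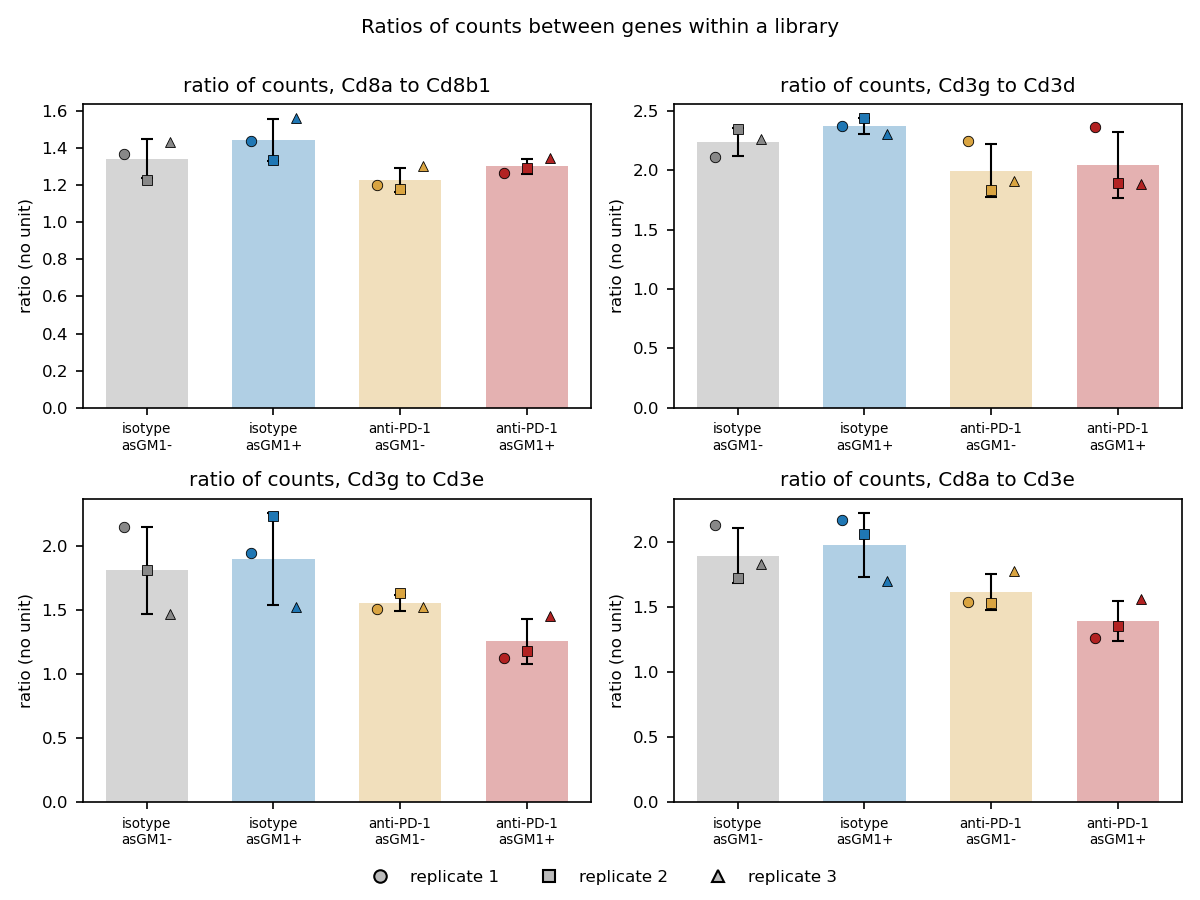
Ratio of counts of 2 genes within each library (vertical axes, no unit, starting at 0), by group. Bars are means of 3 libraries, error bars the SD, and symbols the replicate number. In asGM1-positive cells Cd3g to Cd3e and Cd8a to Cd3e lie lower in all 3 anti-PD-1 libraries than in the isotype ones, while Cd8a to Cd8b1 and Cd3g to Cd3d overlap.

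Between the asGM1-positive and asGM1-negative populations no member passed under either treatment. Under isotype, 0 of 9 members passed by edgeR, DESeq2 or limma voom, and 0 had an unadjusted p under 0.05, where 1.30% of all genes were called. All 9 log2 fold changes (asGM1-positive minus asGM1-negative) were above 0, from 0.09 for Cd8b1 to 0.24 for Lat, with a median of 0.12 beside 0.00 over all genes. Among the 668 genes in the members' abundance range the median was 0.09, so the members lay near genes of like abundance. Only Cd8a had groups that did not overlap, at 0.19 ± 0.09 (SE, edgeR adjusted p = 0.424), and 16.3% of all genes had such groups. The 95% intervals of the 9 genes reached at most 0.57 (Lat), and that of Cd3e ran from -0.06 to 0.31.

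Under anti-PD-1 the log2 fold change lay below 0 for 7 of 9 members. Again 0 of 9 passed by edgeR, DESeq2 or limma voom, 0 had an unadjusted p under 0.05, and 1.60% of all genes were called. The median log2 fold change was -0.10, Cd3e at 0.12 and Zap70 at 0.13 being the 2 above 0. Cd8b1 was the 1 member without overlap, at 1257 to 1384 CPM in the asGM1-positive and 1434 to 1579 CPM in the asGM1-negative cells (log2 fold change -0.19 ± 0.10, SE, edgeR adjusted p = 0.565), beside 19.7% of all genes. Averaged over treatments 0 of 9 passed by the same 3 tools, with 0 at an unadjusted p under 0.05 and 3.63% of all genes called. Lck, at 0.03 with a 95% interval from -0.12 to 0.17, and Cd247, at 0.00 with one from -0.13 to 0.12, lay close to no difference in that average. Same-numbered populations of a treatment pair in their deviations, and fitting the pairs as a replicate block changed no member's call.

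Markers of other cell types differed between the populations, among them those of plasmacytoid dendritic cells, some of which carry CD8 alpha. Of 8 plasmacytoid dendritic cell genes, 7 were lower in asGM1-positive cells under isotype and 6 under anti-PD-1, with summed levels of 219 to 369 CPM against 74.1 to 145 CPM under isotype and 133 to 173 CPM against 67.9 to 75.8 CPM under anti-PD-1. Siglech, a defining gene of that list, was at 0.489 CPM or less in all 6 asGM1-positive libraries. Most of the sum in asGM1-positive cells was Bst2, at 64.8 to 139 CPM under isotype and 54.6 to 65.8 CPM under anti-PD-1. Bst2 was not called between the populations. Of 10 macrophage and monocyte genes, 8 were higher in asGM1-positive cells under isotype and 6 under anti-PD-1. Of 6 genes of type 1 conventional dendritic cells, some of which carry CD8 alpha as well, Flt3 was lower in asGM1-positive cells under both treatments and Clec9a under anti-PD-1. The sum of that list was 521 to 783 CPM over all libraries, at least 495 CPM of it from Irf8, which lymphocytes also express, and it overlapped between the populations. Of 5 genes of CD4 and regulatory T cells, Foxp3 was lower in asGM1-positive cells under both treatments and Cd40lg under anti-PD-1, with summed levels of 229 to 259 CPM against 168 to 182 CPM under isotype and 242 to 272 CPM against 196 to 225 CPM under anti-PD-1. Of the B cell genes, Cd79b was lower in asGM1-positive cells under isotype. Of the gamma delta T cell genes, Trgc2 was higher in asGM1-positive cells under isotype, at 230 to 312 against 93.3 to 175 CPM, and 0 were called under anti-PD-1. NK cell genes gave 0 calls between the populations. Their summed level was 161 to 187 CPM in asGM1-positive against 131 to 151 CPM in asGM1-negative cells under isotype, and overlapped under anti-PD-1. The part of these cells in the member values was not tested. T cell markers were abundant in all groups, with Trac, the alpha chain constant region of the receptor, at 1554 to 2198 CPM.

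Beyond the members, 50 other genes of the proximal pathway were listed, covering receptor chains, costimulators, kinases, phosphatases and adaptors. Between treatments 12 of the 50 passed in asGM1-negative cells (9 higher, 3 lower) and 13 in asGM1-positive cells (10 higher, 3 lower). In the average 24 passed, 19 higher and 5 lower, and the median log2 fold change of the list was 0.15 beside -0.02 over all genes tested. Of all genes tested, 4.21% were called higher and 4.55% lower in asGM1-negative cells, 3.78% and 3.04% in asGM1-positive cells, and 9.22% and 9.10% in the average. Of the 668 genes with a mean log2 CPM of at least 8, 22.9%, 13.8% and 37.7% were called in either direction, in the same order. Many of the 50 listed genes lie below that level, so neither share is a matched background. Leaving out isotype asGM1-negative replicate 1 or 2 or anti-PD-1 asGM1-negative replicate 3 left 5, 6 and 6 calls in asGM1-negative cells. In asGM1-positive cells 7 calls were left each time when replicate 1, replicate 2 or both anti-PD-1 replicate 2 libraries were removed, the first 2 being those of anti-PD-1 asGM1-positive cells.

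**Figure D4:**
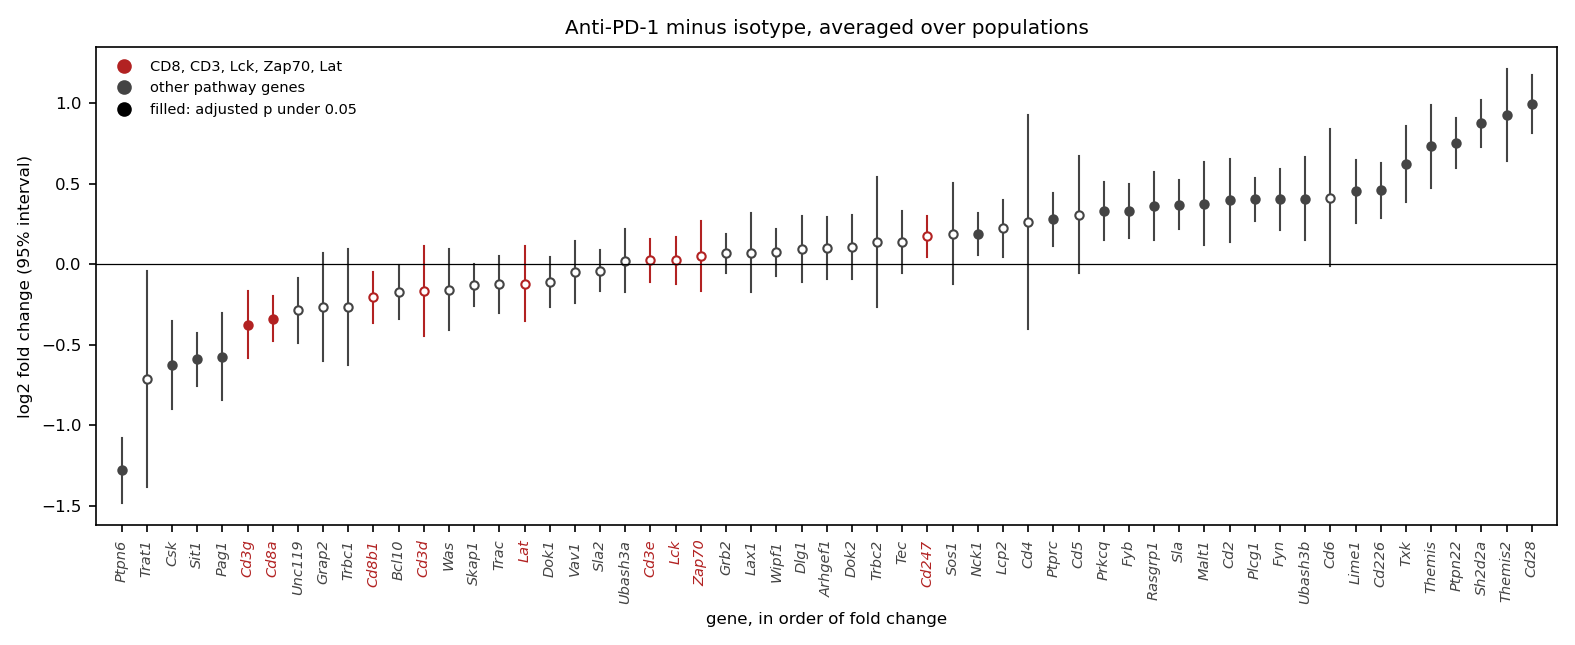
Log2 fold change with 95% interval (vertical axis) of anti-PD-1 minus isotype, averaged over the populations, for the 9 members (red) and 48 of the 50 other pathway genes (grey), in order. Filled points passed at an adjusted p under 0.05 in edgeR. Ptpn6 at -1.28 and Cd28 at 0.99 lie at the ends, and Lck, Zap70 and Cd3e lie near 0.

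The 4 listed genes with the smallest p between treatments in the average were Ptpn6, Cd28, Sh2d2a and Ptpn22. Ptpn6, which encodes SHP-1, a phosphatase that dampens receptor signalling, held 1299.5, 1597 and 1543 CPM in isotype asGM1-negative and 1988, 2235 and 2206 CPM in isotype asGM1-positive libraries. After anti-PD-1 the asGM1-negative libraries held 648, 674 and 813 CPM and the asGM1-positive libraries 662, 710.3 and 889 CPM. It fell by 1.06 on the log2 scale in asGM1-negative cells (SE 0.13, edgeR adjusted p = 0.000913) and by 1.51 in asGM1-positive cells (SE 0.13, adjusted p = 6.34e-05), and no anti-PD-1 library reached the isotype range. The difference between these 2 values, -0.45 ± 0.18 (SE), did not pass in the interaction test (adjusted p = 0.645).

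Cd28, the costimulatory receptor, rose in both populations. Isotype libraries held 227, 287 and 266 CPM (asGM1-negative) and 193, 220.4 and 202 CPM (asGM1-positive), and anti-PD-1 libraries 529, 419 and 478 CPM and 492, 430 and 413 CPM. The log2 fold changes were 0.87 ± 0.12 and 1.12 ± 0.12 (SE, edgeR adjusted p = 0.00139 and 0.000207). Sh2d2a, a T cell adaptor that binds Lck, rose from group means of 1346 ± 62.8 and 1467 ± 94.9 CPM to 2481 ± 178 and 2670.1 ± 235 CPM (SD, n = 3), or by 0.88 and 0.86 on the log2 scale (adjusted p = 0.000432 and 0.000238). Ptpn22, a phosphatase of Lck and Zap70, rose from 519.9 ± 52.6 and 569 ± 46.1 CPM to 928 ± 65.4 and 901 ± 60.3 CPM, or by 0.84 and 0.66 (adjusted p = 0.000746 and 0.00234). These 4 genes were called in each population in all 20 alternatives.

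**Figure D5:**
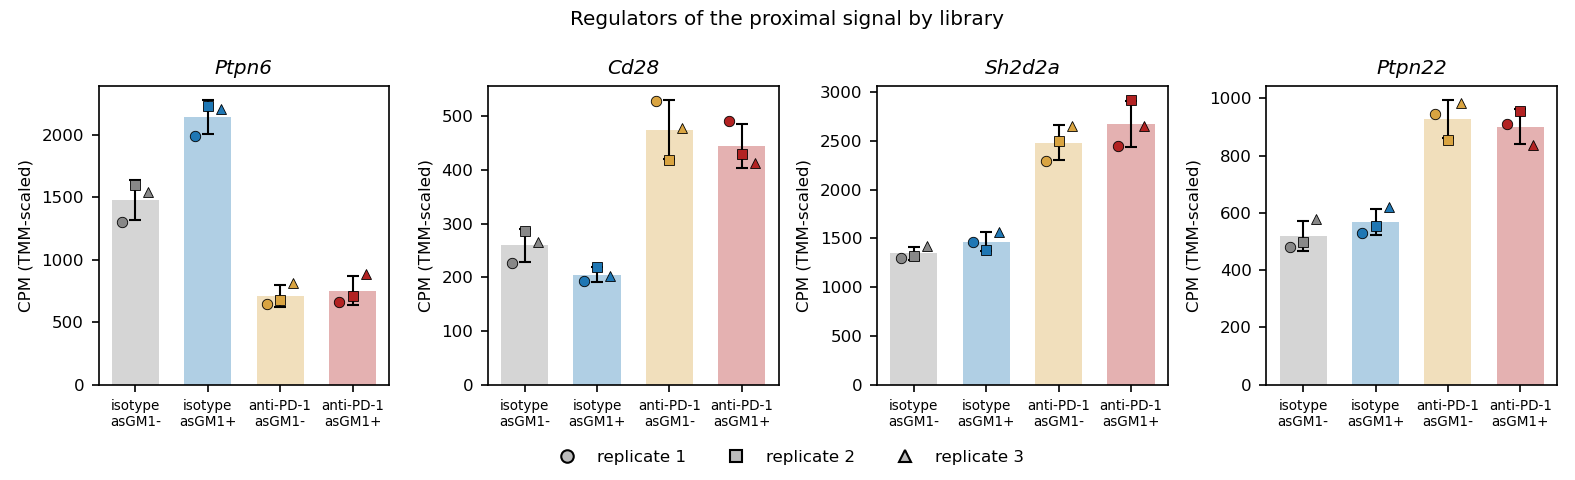
Level of Ptpn6, Cd28, Sh2d2a and Ptpn22 in CPM (vertical axes, starting at 0) in each library, by group. Bars are means of 3 libraries, error bars the SD, and symbols the replicate number. All 6 anti-PD-1 libraries lie below the isotype libraries for Ptpn6 (648 to 889 against 1300 to 2235 CPM) and above them for the other genes.

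Genes that act on Lck, and the related kinase Fyn, were among those called in the average over populations. Csk, the kinase that phosphorylates the inhibitory tyrosine of Lck, fell by 0.63 on the log2 scale (SE 0.13, edgeR adjusted p = 0.00507), and Pag1, a membrane adaptor that holds Csk, fell by 0.58 (SE 0.12, adjusted p = 0.00743). Ptprc, or CD45, the phosphatase that removes that mark, rose by 0.28 (SE 0.07, adjusted p = 0.0231), although this call held in 10 of 19 alternatives (adjusted p from 0.00463 to 0.0668). Ptpn22, the phosphatase of Lck and Zap70 described above, also rose in the average, by 0.75, and was called in all 19 alternatives. Fyn, a second Src-family kinase of T cells, rose by 0.40 (SE 0.09, adjusted p = 0.00742), while Lck itself stood at 0.02 (95% interval -0.12 to 0.17). Csk, Pag1 and Fyn were called in all 19 alternatives of the average. In single populations Csk passed in asGM1-negative cells (-0.75, adjusted p = 0.0222), and Pag1 (-0.85, adjusted p = 0.0140) and Fyn (0.47, adjusted p = 0.0398) in asGM1-positive cells. These calls were less stable than those of the average: of 20 alternatives, Csk was called there in 15 (adjusted p up to 0.0971), Pag1 in 16 (up to 0.0758) and Fyn in 9 (up to 0.193).

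Downstream of Zap70 and Lat, Plcg1, the phospholipase that Lat recruits, rose in the average by 0.40 (SE 0.06, edgeR adjusted p = 0.00106), and Themis, an adaptor of T cell development and signalling, by 0.73 (SE 0.12, adjusted p = 0.00142). Lcp2, or SLP-76, the scaffold paired with Lat, stood at 0.22 (adjusted p = 0.0809). Malt1, a protease on the path to NF-kappaB, rose by 0.37 (adjusted p = 0.0461), a call that held in 7 of 19 alternatives. Sit1, a transmembrane adaptor with inhibitory motifs, fell by 0.59 (SE 0.08, adjusted p = 0.000312). Cd2, an adhesion receptor, rose by 0.39 (adjusted p = 0.0360) with the call holding in 8 of 19 alternatives, and Cd5, an inhibitory receptor, stood at 0.31 (adjusted p = 0.237).

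The constant regions of the antigen-binding receptor chains did not pass between treatments. In the average, Trac stood at -0.13 (95% interval -0.31 to 0.05), Trbc1 at -0.27 (adjusted p = 0.303) and Trbc2 at 0.14 (adjusted p = 0.670). Trbc1 and Trbc2 are near-identical copies whose reads the counting may have split, so their separate values are uncertain. In asGM1-positive cells Trac held 1771, 2198 and 2124 CPM under isotype and 1554, 1660.1 and 1884 CPM under anti-PD-1, with overlap and a log2 fold change of -0.26 ± 0.12 (SE, edgeR adjusted p = 0.232).

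Between populations few of the listed pathway genes passed. Trat1, a transmembrane adaptor of the receptor complex, was the 1 of 50 called under isotype and under anti-PD-1, lower in asGM1-positive cells by log2 fold changes of -2.06 (edgeR adjusted p = 0.0475) and -2.28 (adjusted p = 0.0299), at levels of 0.403 to 7.14 CPM. These calls were missed in 11 and in 8 of 21 alternatives (adjusted p up to 0.177 and 0.213). In the average Trat1 (-2.17, adjusted p = 0.00309) and Cd4 (-1.52, adjusted p = 0.0194) were called, both lower. Cd4 held at most 15.1 CPM in any library. With the replicate pairs as a block, 5, 3 and 9 of the 50 were called in place of 1, 1 and 2 (isotype, anti-PD-1, average). Calls over all genes rose as well, from 243, 299 and 678 (1.30, 1.60 and 3.63% of those tested) to 755, 929 and 1662. Of the listed genes called with the block under isotype, Ptpn6 was higher in asGM1-positive cells (0.54, adjusted p = 0.00331) and Cd28 lower (-0.34, adjusted p = 0.0326). The interaction gave 0 of 50 by edgeR, DESeq2 and limma voom, with 4 at an unadjusted p under 0.05.

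Genes whose log2 CPM followed the members most closely over the 12 libraries were found among 9248 genes with a mean log2 CPM of at least 3. For the mean of the 9 members after standardising each, they were Zfand2b (Pearson r = 0.94), Ppm1j (0.93), Gpr137 (0.92), Irf3 (0.92) and Crcp (0.92). For Cd8a they were Pde6d (0.97), Adgrg5 (0.96) and Matk (0.95), and for Cd3e Rnf26 (0.92), Rad51d (0.88) and Man2b2 (0.87). The lists for Cd8a and Cd3e shared 0 genes. These are descriptions over n = 12 libraries that include the 4 groups and share their depth and scaling, picked as the highest of 9248 values.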

How the data were processed

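RNA from 12 sorted CD8+ T cell libraries was extracted with TRIzol and prepared with SMARTer ultra-low-input and TruSeq mRNA kits, per the labels' protocols. HISAT2, StringTie and build mm39 were used, per the submitters' processing notes. Not given in the sources used here are versions, settings, annotation, strand use and the handling of reads with several matches. The deposited values are whole counts for each gene and library, and whether they are read tallies or come from StringTie coverage is not stated. The 310 genes without a symbol (0.0387 to 0.0547% of counts) stayed in totals and tests.

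Counts were tested with edgeR 4.0.16 (limma 3.58.1, R 4.3.3): filter by expression per group (18657 genes), TMM scaling (factors 0.970 to 1.04), 1 quasi-likelihood fit with robust prior and a mean per group over all 12 libraries (8 residual degrees of freedom), 7 contrasts, Benjamini-Hochberg adjustment over all genes, threshold 0.05. SE is the size of the log2 fold change over the square root of F. Alternatives were RLE factors, no filter, DESeq2 1.42.0, limma voom, only the libraries compared, replicate blocks, leaving out each library or both anti-PD-1 replicate 2 libraries (planned), and a prior that is not robust (added later). The fit was tested on simulated data.

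All 9 members and 15 other genes were named whatever their result, with up to 4 pathway genes per contrast of smallest p past the threshold; some of these genes are not reported here. Pag1, Malt1, Hspa1a and the marker genes named fall outside that rule and were chosen after their values were seen. Members and lists were chosen with earlier results of these data known. Promoter windows are RefSeq sequences matched by symbol. Deviations of same-numbered libraries from their group means correlated within a treatment (r = 0.121 to 0.298 over genes, 6 pairs), so numbers pair the populations of a treatment; across treatments r was -0.107 to 0.0129, so numbers there are only shared.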

Additional observations from a re-analysis of the deposited data

How the results depend on the processing

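Over 7 contrasts and the alternatives run, 1254 of 1269 member values kept their side of the threshold, 9 lost a call, 6 gained one and 0 reversed among called values; 59 values that passed in neither fit had another sign. RLE in place of TMM moved the median of all genes by under 0.1 on the log2 scale. Limits are the 3 libraries per group, PCR copies that are not independent molecules, and counts whose derivation is not stated. The cause of the changes below was not tested.

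Of the 9 members, calls for anti-PD-1 against isotype were 1 (asGM1-negative, main 0) and 4 (average, main 2) with DESeq2, and 0 (asGM1-positive, main 2) with only the 6 libraries compared or without both anti-PD-1 replicate 2 libraries. Leaving out 1 library gave 1 to 3 in asGM1-positive cells and in the average, and 0 in the other 5 contrasts.

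Of the 50 pathway genes, the population contrast under isotype (main 1) gave 2 with RLE, 5 with DESeq2, 4 with voom, 0 with 6 libraries, 5 with the pair replicate block, 3 with the block by number alone, and 0 without both replicate 2 libraries. Under anti-PD-1 (main 1) voom, the block by number and leaving both out gave 0, and the pair block 3. Averaged (main 2), DESeq2 gave 4, the pair block 9 and leaving both out 1. Treatment in asGM1-positive cells (main 13) gave 20 with DESeq2 and 7 without both. Leaving out 1 library gave 0 to 1 in both single population contrasts, 1 to 3 averaged, and for treatment 5 to 13, 7 to 13 and 18 to 24 (asGM1-negative, asGM1-positive, average).

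Of all genes, DESeq2 called 789, 845 and 1419 between populations (isotype, anti-PD-1, average; main 243, 299 and 678), 2759 and 2264 between treatments (asGM1-negative, asGM1-positive; main 1633 and 1274) and 136 in the interaction (main 0). The pair replicate block gave 755, 929 and 1662 between populations and 13 in the interaction. Fits of 6 libraries gave 80 between populations under isotype and 694 between treatments in asGM1-positive cells. Without both replicate 2 libraries, 17 and 284 were called between populations (anti-PD-1, average) and 813, 616 and 2148 between treatments (asGM1-negative, asGM1-positive, average; main 3417). Leaving out 1 library gave 86 to 230, 65 to 379 and 413 to 823 between populations, 778 to 1782, 683 to 1276 and 2451 to 3518 between treatments, and 0 in the interaction. With libraries left out, the group means of the 6 log2 ratios between members moved by less than their SD over the libraries of the group. With 3 libraries per group this must hold when 1 is left out, so it gives no measure of how stable the ratios are. The pair block changed no call of a member.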
